A study of Mus musculus with 6 samples.

Results

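The genes described here serve potassium secretion into the endolymph of the inner ear, and the set holds 7 genes, Kcnq1, Kcne1, Slc12a2, Atp1b2, Bsnd, Kcnj10 and Slc26a4, of 39179 genes counted. They were listed by symbol for what their products do, with earlier results of these data known, as were the other gene lists below. Each symbol was matched to its Ensembl identifier in the count tables. RNA-seq libraries came from wild-type newborn (P0) C57Bl/6J mice, males and females pooled, with 3 libraries of cochlear and 3 of vestibular sensory epithelium. The cochlea is the hearing organ and the vestibule the balance organ, and the epithelium was dissected by hand from 20 inner ears of 10 mice. No mutation, transgene or treatment distinguished the groups, and the comparison asks how the tissues differ in expression. It is not clear whether the 3 libraries of a tissue came from separate pools of RNA, so p-values measure only the spread between these libraries, which may be technical.

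Endolymph, the fluid that bathes the hair bundles, is rich in potassium. In the cochlea the potassium is secreted by the marginal cells of the stria vascularis, and in the vestibule by the dark cells that border the sensory patches. Both cell types take potassium up across their basolateral membrane through the Na,K-ATPase and the cotransporter NKCC1, return chloride through channels that need the subunit barttin, and release potassium apically through a channel built of KCNQ1 and KCNE1. Loss of KCNQ1, KCNE1, NKCC1 or barttin causes deafness, often with balance defects. KCNJ10 and pendrin belong to the same fluid system but are known from neighbouring cells, KCNJ10 from strial intermediate cells and glia, and pendrin from outer sulcus, spindle and vestibular transitional cells.

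In the newborn epithelia, 5 of the 7 genes were higher in the vestibule than in the cochlea. Bsnd and Kcne1 differed most, with mean levels 15.4 and 8.27 times higher, followed by Kcnq1 (3.34 times), Atp1b2 (2.60 times) and Slc26a4 (2.33 times). Slc12a2 and Kcnj10 had overlapping libraries, with mean levels 1.05 and 1.14 times higher in the vestibule. These ratios compare mean CPM, counts scaled to the reads assigned to genes in the library.

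Differences were tested on the TMM-scaled counts by edgeR's quasi-likelihood method, and p-values were adjusted after Benjamini and Hochberg over the 14723 genes that had at least 1 CPM in 3 or more libraries. A gene was called at a false discovery rate of 0.05, and log2 fold changes are vestibule minus cochlea. All 7 genes had more than 1 CPM in each of the 6 libraries, so none passed this filter through a single tissue. The 5 genes called higher in the vestibule compare with 15.8% of all tested genes. In the cochlear direction 11.6% of tested genes were called and 0 of the 7, with 0 also at an unadjusted p under 0.05 and 0 by DESeq2 and limma-voom. The median log2 fold change was 1.26 over the 7 genes and 0.0048 over all tested genes. The same 5 genes had all 3 vestibular libraries above all 3 cochlear ones, as did 27.5% of tested genes, while the opposite held for 14.3% of tested genes and for neither Slc12a2 nor Kcnj10. In bulk tissue, fewer cells of a type and less RNA per cell cannot be told apart.

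The libraries held between 24464483 and 33664793 counts on genes, so 1 CPM stood for 24.5 to 33.7 counts. Libraries differed less within a tissue (root mean square log2 difference 0.39 to 0.58) than between tissues (1.002 to 1.18), with cochlea replicate 3 farther from its group (0.55 and 0.58) than the other 2 cochlear libraries were from each other (0.40). The tissue labels were checked against known regional genes. Tectb, which encodes a tectorin of the cochlear tectorial membrane, had 31907 to 45900 counts in the cochlea and 5646 to 6228 in the vestibule. Otop1, which is needed to form the otoconia of the vestibule, had 0 or 1 count in each cochlear library and 513 to 729 in each vestibular one.

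**Figure D1:**
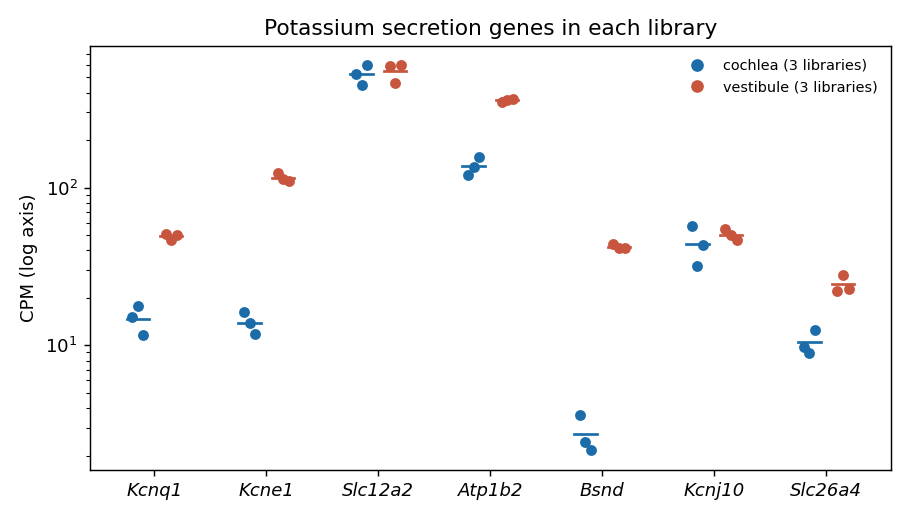
Level of each of the 7 genes in every library, in CPM on a log axis, with a bar at the mean of the 3 cochlear or 3 vestibular libraries. The tissues separate for Kcnq1, Kcne1, Atp1b2, Bsnd and Slc26a4 and overlap for Slc12a2 (449 to 595 and 462 to 596 CPM) and Kcnj10 (32.0 to 57.1 and 46.4 to 54.8 CPM).

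Kcnq1 (ENSMUSG00000009545) and Kcne1 (ENSMUSG00000039639) encode the pore and the accessory subunit of the apical potassium channel. In GRCm38, with the gene models of GENCODE vM21, Kcnq1 lies on the plus strand at chr7:143106362-143427042 and Kcne1 on the minus strand at chr16:92345982-92359468. Kcnq1 had 15.0, 17.7 and 11.6 CPM in the 3 cochlear libraries and 50.6, 46.8 and 50.2 CPM in the 3 vestibular ones. All vestibular libraries were above the cochlear ones, and the means were 14.8 ± 3.04 and 49.2 ± 2.09 CPM (SD, n = 3 each). Kcnq1 rose by 1.61 ± 0.19 on the log2 scale (SE, edgeR adjusted p = 0.000319), with a 95% interval of 1.19 to 2.04. Its antisense transcript Kcnq1ot1, a long noncoding RNA of an imprinted domain, overlaps 121 bp (2.96%) of the Kcnq1 exons, was not among the identifiers counted, and has no value here. The strand setting of the counting is not given in the sources used here, so Kcnq1 counts may hold antisense reads from that overlap.

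Kcne1 had 16.2, 13.8 and 11.7 CPM in the cochlea and 124, 113 and 109 CPM in the vestibule, from 343 to 398 and 2785 to 4162 counts. Every vestibular library was far above every cochlear one. The mean of Kcne1 went from 13.9 ± 2.25 to 115 ± 7.50 CPM (SD, n = 3 each), and its log2 fold change was 2.93 ± 0.15 (SE, edgeR adjusted p = 5.79e-06). The 95% interval of the fold was 5.96 to 9.70, and 244 of the tested genes had a larger log2 fold change.

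Slc12a2 (ENSMUSG00000024597, chr18:57878678-57946821, plus strand) encodes NKCC1, the cotransporter that loads the secretory cells with sodium, potassium and chloride. Its levels were 522, 449 and 595 CPM in the cochlea and 589, 462 and 596 CPM in the vestibule. Both tissues spanned almost the same range, with means of 522 ± 72.8 and 549 ± 75.3 CPM (SD, n = 3 each). The log2 fold change of Slc12a2 was -0.04 ± 0.16 (SE, edgeR adjusted p = 0.887), with a 95% interval of 0.752- to 1.26-fold. NKCC1 is widely expressed, so the bulk level is not that of secretory cells alone.

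Atp1b2 (ENSMUSG00000041329, chr11:69599736-69605942, minus strand) encodes the beta 2 subunit of the Na,K-ATPase, which marginal and dark cells use and which glia also make. It had 119.9, 135 and 157 CPM in the cochlea and 348, 360 and 363 CPM in the vestibule. The vestibular libraries of Atp1b2 were closely grouped and well above the cochlear ones, at 357 ± 7.78 against 137 ± 18.6 CPM (SD, n = 3 each). The gene rose by 1.26 ± 0.14 on the log2 scale (SE, edgeR adjusted p = 0.000273).

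Bsnd (ENSMUSG00000025418, chr4:106483456-106492283, minus strand) encodes barttin, without which the basolateral chloride channels do not work at the membrane. In the cochlea it was low, with 89, 70 and 63 counts or 3.64, 2.43 and 2.16 CPM. In the vestibule it had 1475, 1064 and 1047 counts or 43.8, 41.4 and 41.1 CPM. No cochlear library came near a vestibular one, and the means were 2.74 ± 0.789 and 42.1 ± 1.48 CPM (SD, n = 3 each). The log2 fold change of Bsnd was 3.83 ± 0.21 (SE, edgeR adjusted p = 6.16e-06), the fold interval was 10.2 to 19.7, and 113 tested genes had a larger log2 fold change.

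Kcnj10 (ENSMUSG00000044708, chr1:172341210-172374085, plus strand) encodes the inward rectifier KIR4.1, which strial intermediate cells need to generate the endocochlear potential and which satellite and other glia express. It had 57.1, 32.0 and 42.9 CPM in the cochlea and 54.8, 49.9 and 46.4 CPM in the vestibule. The vestibular values all lay within the cochlear range, at means of 44.0 ± 12.6 and 50.4 ± 4.24 CPM (SD, n = 3 each). The log2 fold change of Kcnj10 was 0.08 ± 0.18 (SE, edgeR adjusted p = 0.781), with an interval of 0.790- to 1.42-fold.

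Slc26a4 (ENSMUSG00000020651, chr12:31519827-31559969, minus strand) encodes pendrin, an exchanger that secretes bicarbonate into the endolymph and whose loss enlarges the endolymphatic space. It had 9.81, 8.99 and 12.5 CPM in the cochlea and 22.1, 28.1 and 22.9 CPM in the vestibule. The groups did not overlap, with means of 10.4 ± 1.83 and 24.3 ± 3.26 CPM (SD, n = 3 each). Slc26a4 rose by 1.11 ± 0.17 on the log2 scale (SE, edgeR adjusted p = 0.00165), the smallest change among the 5 genes called.

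The start regions of Slc26a4, called higher in the vestibule, and Kcnj10, not called, are shown because these were the 2 of the 7 genes matched in the sequence table used. Each is the 250 bases before the annotated transcript start, 5′ to 3′ on the strand of the gene, from RefSeq on GRCm38.p6, at chr12:31559985-31560234 (minus strand) and chr1:172340960-172341209 (plus strand). Kcnq1, Kcne1, Slc12a2, Atp1b2 and Bsnd are named only. Capitals mark the letters TATAAA.
Slc26a4: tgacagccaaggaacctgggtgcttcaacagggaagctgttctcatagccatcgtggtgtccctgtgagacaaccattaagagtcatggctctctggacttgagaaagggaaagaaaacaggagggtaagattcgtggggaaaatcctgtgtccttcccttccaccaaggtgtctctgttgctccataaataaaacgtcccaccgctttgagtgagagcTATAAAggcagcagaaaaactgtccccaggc
Kcnj10: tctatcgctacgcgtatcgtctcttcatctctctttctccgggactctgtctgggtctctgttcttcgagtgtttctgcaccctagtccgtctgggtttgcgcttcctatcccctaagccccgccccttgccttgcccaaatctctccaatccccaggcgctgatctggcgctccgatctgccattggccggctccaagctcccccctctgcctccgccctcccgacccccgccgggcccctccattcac
The Slc26a4 region held TATAAA on the strand of the gene, starting 31 bases before the transcript start, and was 49.6% G and C. The Kcnj10 region was 62% G and C and held no TATAAA, against a median of 52.4% G and C over 32851 such regions. TATAAA was searched after the sequences had been seen, on both strands, and 12.4% of the 32851 regions hold it. Neither region held AAGGTCA, the letters bound by estrogen-related receptors such as ESRRB (4.08% of regions), or the forkhead letters TGTTTAC or TGTTTGC (7.29%), on either strand, and none of the motifs overlapped another in either region. A match describes letters in this window and no more.

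Levels of different genes were compared per length of gene, with the deposited log2 RPKM (reads scaled to gene length and to library size). In the cochlea the order was Slc12a2 (6.32 ± 0.20 log2 RPKM, SD, n = 3 here and below), Atp1b2 (5.06 ± 0.20), Kcnj10 (2.99 ± 0.42), Kcnq1 (2.27 ± 0.31), Kcne1 (2.11 ± 0.23), Slc26a4 (1.75 ± 0.25) and Bsnd (-0.04 ± 0.39). Slc12a2, Atp1b2, Kcnj10 and Bsnd stood apart from their neighbours in that order, while the libraries of Kcne1 overlapped those of Kcnq1 above and Slc26a4 below. In the vestibule the order was Atp1b2 (6.45 ± 0.03), Slc12a2 (6.39 ± 0.21), Kcne1 (5.17 ± 0.09), Kcnq1 (4.02 ± 0.06), Bsnd (3.94 ± 0.05), Kcnj10 (3.22 ± 0.12) and Slc26a4 (2.98 ± 0.19). There Atp1b2 and Slc12a2 overlapped, as did Kcnq1 and Bsnd, and Kcnj10 and Slc26a4.

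Among the 14722 genes of the matrix, Kcne1 moved from percentile 41.7 in the cochlea to 89.6 in the vestibule, and Bsnd from 15.2 to 72.9. Kcnq1 moved from percentile 44.3 to 74.6, Slc26a4 from 36.0 to 54.4 and Atp1b2 from 89.2 to 96.6. Slc12a2 (96.2 and 96.4) and Kcnj10 (57.6 and 59.0) held nearly the same place. Close neighbours in the order depended on the gene model. With all exons of GENCODE vM21 merged, Kcnq1 is 4093 bp long in place of the 3023 bp behind the deposited values, and fell to 1.83 log2 RPKM in the cochlea and 3.59 in the vestibule. It then lay below Kcne1 in the cochlea and below Bsnd (3.93) in the vestibule. Slc12a2 fell to 5.57 in the cochlea and 5.64 in the vestibule, where it stayed below Atp1b2 (6.45) by a wider margin.

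**Figure D2:**
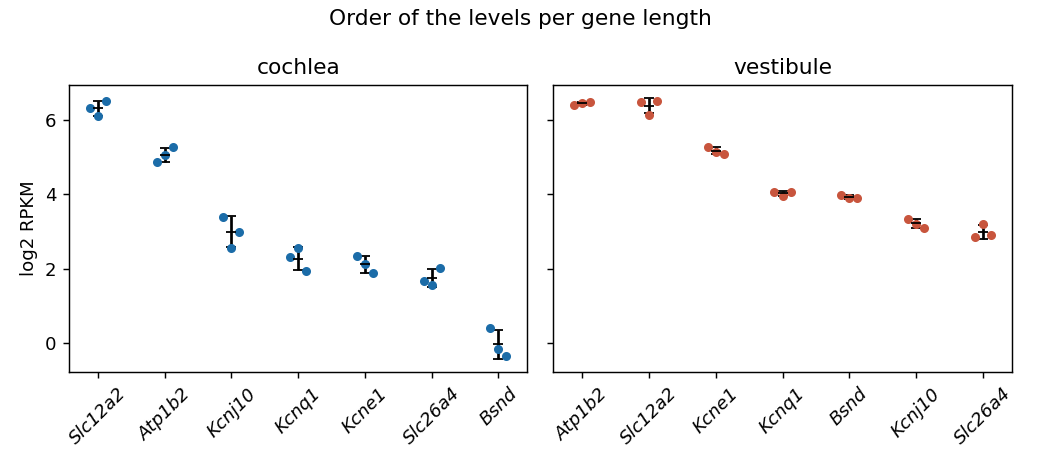
Deposited log2 RPKM of the 7 genes in each library, ordered by mean within the cochlea (left) and the vestibule (right), with the mean and SD of 3 libraries in black. Kcne1 and Bsnd stand at 2.11 and -0.04 in the cochlea and at 5.17 and 3.94 in the vestibule, above Kcnj10 at 3.22.

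The balance of the set was then read within each library from ratios of counts, which do not depend on the scaling of the library. A count ratio carries the lengths of both genes, so only its change between tissues is meaningful. The ratio of Kcne1, the accessory subunit, to Kcnq1, the pore, was 1.08, 0.782 and 1.01 in the cochlear and 2.44, 2.41 and 2.18 in the vestibular libraries. The accessory subunit thus gained on the pore in every vestibular library, by 1.30 on the log2 scale. For Bsnd to Kcnq1 the values were 0.243, 0.138 and 0.186 in the cochlear and 0.866, 0.885 and 0.818 in the vestibular libraries, a change of 2.22. The tissues did not overlap for either ratio.

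The ratios of Slc12a2 and Kcnj10 to Kcnq1 went the other way, lower in every vestibular than in every cochlear library. Slc12a2 to Kcnq1 was 34.8, 25.4 and 51.3 in the cochlear and 11.6, 9.88 and 11.9 in the vestibular libraries, a log2 change of -1.68. Kcnj10 to Kcnq1 was 3.80, 1.81 and 3.70 in the cochlear and 1.08, 1.07 and 0.923 in the vestibular libraries, a log2 change of -1.53. Slc26a4 to Kcnq1 overlapped between tissues, at 0.654, 0.509 and 1.08 in the cochlear and 0.436, 0.600 and 0.455 in the vestibular libraries. Atp1b2 was set against Atp1b1, which encodes the beta 1 subunit of the same pump. That ratio was 0.288, 0.386 and 0.419 in the cochlear and 1.94, 2.11 and 1.95 in the vestibular libraries, without overlap and with a log2 change of 2.48.

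With 3 libraries against 3, a two-sided exact permutation test cannot go below p = 0.1. The 5 ratios whose tissues did not overlap all reached p = 0.1 in this exact permutation test, 0.12 after Benjamini-Hochberg adjustment over the 6 ratios, and Slc26a4 to Kcnq1 had p = 0.2 before and after adjustment. None of the 6 therefore passed a threshold of 0.05, which this test cannot reach with 3 libraries against 3.

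**Figure D3:**
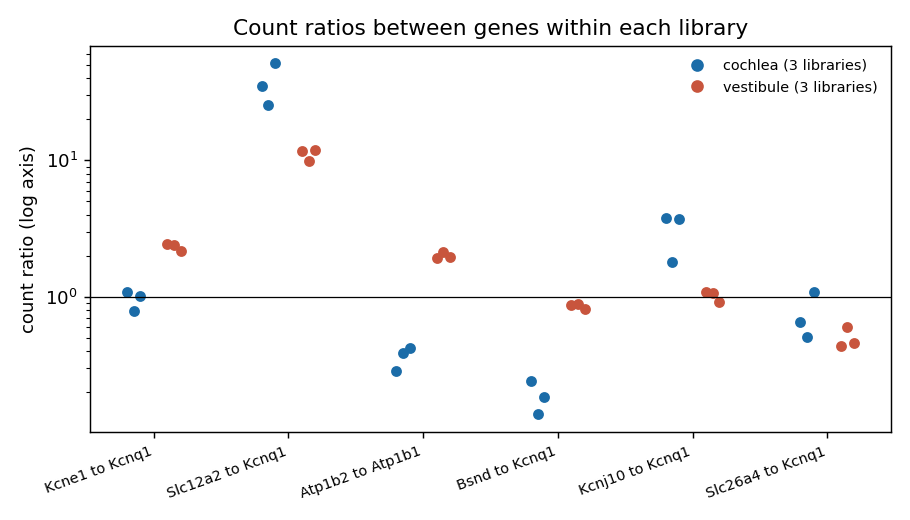
Ratio of the counts of 2 genes within each library, on a log axis with a line at 1, for 3 cochlear and 3 vestibular libraries. Kcne1 to Kcnq1 lies at 0.782 to 1.08 in the cochlea and 2.18 to 2.44 in the vestibule, and Atp1b2 to Atp1b1 at 0.288 to 0.419 and 1.94 to 2.11.

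Beside the 7 genes stand 40 others of the same transport systems, in 6 lists of subunits and partners. Of these, 33 were tested, with 12 called higher in the vestibule, 6 called higher in the cochlea and 15 not called, and a median log2 fold change of 0.24. Over all tested genes the shares called were 15.8% and 11.6%, and calls among the partners went in both directions.

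Among the other Na,K-ATPase subunits, Atp1b1 fell from 380 ± 33.5 to 178 ± 7.74 CPM (SD, n = 3 each), with a log2 fold change of -1.21 ± 0.13 (SE, edgeR adjusted p = 0.000201), opposite to Atp1b2. Of its exons 18.7% overlap Nme7 on the opposite strand, so the strand setting matters for Atp1b1 too. Unlike Kcnq1ot1, Nme7 was itself counted (242 to 404 counts), so reads of that overlap may have been set aside as ambiguous and lost to Atp1b1. Atp1b3, the beta 3 subunit, had a log2 fold change of 0.23 (edgeR adjusted p = 0.337). Per length, Atp1b1 was above Atp1b2 in the cochlea (157 and 33.7 RPKM) and below it in the vestibule (73.8 and 87.5 RPKM).

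Of the other KCNQ and KCNE subunits, Kcne2 and Kcne4, both accessory subunits, rose in the vestibule, with log2 fold changes of 1.93 ± 0.46 and 1.20 ± 0.22 (SE, edgeR adjusted p = 0.0141 and 0.00377). Both were low, at means of 2.60 and 3.84 CPM in the vestibule, and Kcne2 was not called without cochlea replicate 1 (1.75) or cochlea replicate 2 (1.66). Kcnq3 and Kcnq5, relatives of the pore subunit, had log2 fold changes of 0.39 and -0.42 (edgeR adjusted p = 0.310 and 0.248). Kcne3, another accessory subunit, had 13 to 34 counts and was not tested.

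Among cation-chloride cotransporters, the relatives of Slc12a2, Slc12a7 was higher in the cochlea (-0.72 ± 0.13, SE, edgeR adjusted p = 0.00409). Slc12a4 had a log2 fold change of 0.43 (edgeR adjusted p = 0.0829) and was called higher in the vestibule without cochlea replicate 3 (0.61). Slc12a1, the renal relative, had 0 to 5 counts and was not tested.

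**Figure D4:**
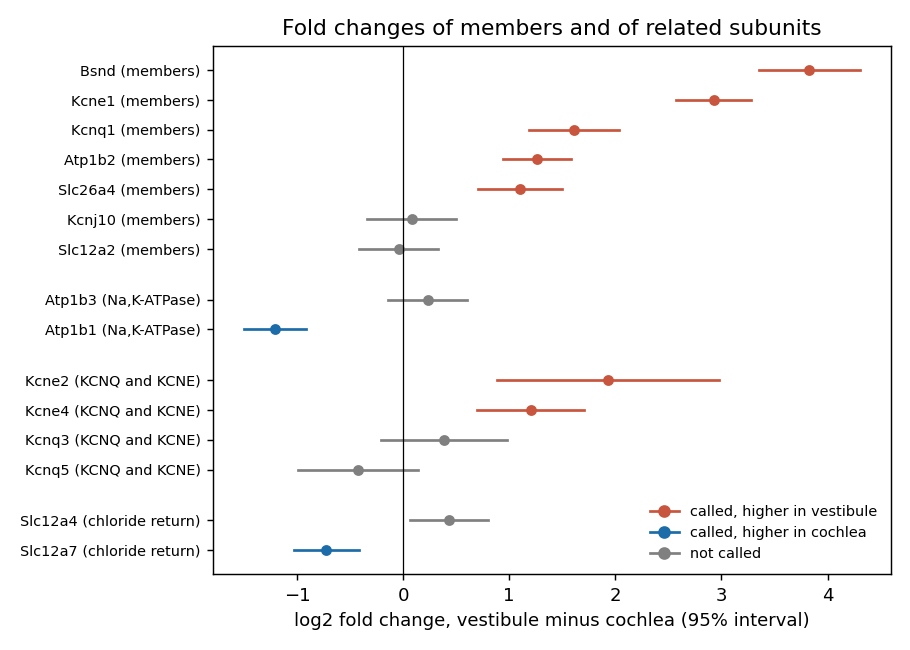
Log2 fold change (vestibule minus cochlea) of the 7 genes, labelled members, and of 8 tested genes of 3 partner lists, with 95% intervals and colours for the edgeR call at a false discovery rate of 0.05. Bsnd (3.83) and Kcne1 (2.93) lie farthest right among the 7, and Atp1b1 (-1.21) and Slc12a7 (-0.72) are called in the cochlear direction.

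Among inward rectifier channels, the relatives of Kcnj10, 3 of 5 were tested and Kcnj2 (2.06 ± 0.21) and Kcnj13 (1.34 ± 0.30) rose in the vestibule (SE, edgeR adjusted p = 0.000165 and 0.0109). Kcnj16, whose product joins KIR4.1 in mixed channels, had a log2 fold change of -0.01 ± 0.18 (SE, edgeR adjusted p = 0.976), near that of Kcnj10. Of the anion and acid transport genes linked to pendrin, 6 of 8 were tested. Atp6v1b1, which encodes a subunit of the proton pump and causes deafness with renal acidosis when lost, fell from 21.8 ± 4.23 to 1.39 ± 0.255 CPM (SD, n = 3 each), opposite to Slc26a4. Its log2 fold change was -4.10 ± 0.25 (SE, edgeR adjusted p = 1.1e-05). Atp6v1c2, another pump subunit, rose by 0.83 ± 0.24 (SE, edgeR adjusted p = 0.0316), a call kept only without vestibule replicate 3 among the 6 omissions of a library (0.65 to 0.89 in the others). Foxi1, a factor that drives Slc26a4 in the endolymphatic sac and defines its ion-transporting cells, had 0, 0 and 2 counts in the cochlear and 9, 59 and 5 in the vestibular libraries and was not tested.

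All 8 genes of sodium absorption were tested, with 4 higher in the vestibule and 2 in the cochlea, of which Nedd4l, a ubiquitin ligase that removes the sodium channel (-0.53), lost its call in 4 of the 6 omissions of a library and without TMM. Scnn1b and Scnn1g, which encode subunits of the epithelial sodium channel, rose by 2.71 ± 0.19 and 2.09 ± 0.22 on the log2 scale (SE, edgeR adjusted p = 1.97e-05 and 0.00021). Hsd11b2, the enzyme that keeps cortisol from the mineralocorticoid receptor, was lower in the vestibule (-2.89 ± 0.31, SE, edgeR adjusted p = 0.000221).

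Markers of the cell types the dissection could hold were read in the same way. Their counts of calls are to be read against the 15.8% of all tested genes called higher in the vestibule and the 11.6% called higher in the cochlea. Of 4 marginal and dark cell genes outside the set, 3 were called higher in the vestibule, led by Esrrb, a nuclear receptor needed for marginal cell identity. Esrrb went from 15.7 ± 3.35 to 174 ± 12.1 CPM (SD, n = 3 each), a log2 fold change of 3.35 ± 0.18 (SE, edgeR adjusted p = 5.93e-06). Lmx1a, a factor of the non-sensory otic epithelium, and Heyl, a target of Notch, rose by 1.18 and 0.61 on the log2 scale (edgeR adjusted p = 0.000657 and 0.0105), and Heyl was not called without vestibule replicate 2 (0.58). Abcg1, a cholesterol transporter, had a log2 fold change of 0.35 (edgeR adjusted p = 0.0976). The summed level of the 4 genes was 117 to 129 CPM in the cochlea and 342 to 373 CPM in the vestibule.

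Other lists moved with the tissue too. Of 7 melanocyte and intermediate cell genes, 6 were called higher in the vestibule (15.8% of all tested genes), and the 7 had a summed level of 77.6 to 104 CPM in the cochlea and 329 to 381 CPM in the vestibule. Pmel, a protein of the melanosome matrix, rose by 2.47 on the log2 scale (edgeR adjusted p = 8.37e-05). The pigment genes Tyrp1 and Mlana had 8 to 27 and 12 to 14 counts in the cochlear libraries and 862 to 1410 and 413 to 500 in the vestibular ones. Both were under 1 CPM in every cochlear library, so they passed the filter through the vestibule alone, which leaves 4 calls among the other 5 genes, and they were not tested when any vestibular library was omitted. Kit, the receptor that melanocytes need to survive and migrate, was not called and stood at 37.0 to 39.6 CPM in the cochlea and 28.7 to 35.5 CPM in the vestibule (log2 fold change -0.35, edgeR adjusted p = 0.068).

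Fibrocyte and basal cell genes summed to 655 to 832 CPM in the cochlea and 2549 to 3072 CPM in the vestibule, with Coch (3.00), an abundant extracellular protein, and Cldn11 (2.03), the tight junction protein of strial basal cells, higher in the vestibule. Otos, a fibrocyte protein, had 46 to 74 counts in the cochlea and 14 to 27 in the vestibule, where it was under 1 CPM in every library, so it passed the filter through the cochlea alone and was not tested when any cochlear library was omitted. Of the 5 genes 3 were called higher in the vestibule and 2, Otos included, in the cochlea. Among them, Pou3f4 lost its call whichever library was omitted (log2 fold change -0.32 without vestibule replicate 2). Tbx18 lost its call in every omission except that of cochlea replicate 3 (0.35 without cochlea replicate 1).

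Schwann and satellite glia genes, of interest because Atp1b2 and Kcnj10 are glial too, had 4 of 8 called higher in the vestibule (15.8% of all tested genes) and 1, Fabp7 (-0.94), in the cochlea (11.6%). Pmp22 (1.45), a myelin protein of Schwann cells, and Mbp (1.16), the myelin basic protein, were among those higher in the vestibule, and the list summed to 886 to 1102 CPM in the cochlea and 1490 to 1861 CPM in the vestibule. Of 2 markers of the cochlear roof, Vmo1 was higher in the cochlea (-2.14), and the pair summed to 29.8 to 40.2 CPM there against 12.0 to 20.3 CPM, an order that rested on Vmo1, since Otx2 overlapped (10.4 to 13.9 and 8.09 to 13.4 CPM).

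Hair cell genes overlapped between tissues in summed level, at 468 to 620 and 595 to 653 CPM, though Gfi1, a factor for hair cell survival, rose by 2.19 and Pou4f3, another such factor, by 0.65. Of the 5 genes these 2 were called higher in the vestibule (15.8% of all tested genes). The other 3, Myo7a (0.57), Atoh1 (-0.07) and Myo6 (-0.35), were not called. Pou4f3 was not called without cochlea replicate 1 (0.59) or vestibule replicate 2 (0.68). Supporting cell genes summed to 1005 to 1612 and 2125 to 2574 CPM, with Otog (1.04), a protein of the membranes over the hair cells, higher in the vestibule, and its relative Otogl (-1.56) and the progenitor factor Sox2 (-0.60) higher in the cochlea. The Sox2 call was lost in 4 of the 6 omissions of a library. The supporting cell sum rested on Otog, and without it the other 3 genes summed to 342 to 428 CPM in the cochlea and 229 to 255 CPM in the vestibule, the opposite order. The overlap of the hair cell sums rested on the abundant Myo6, without which they were 108 to 162 and 268 to 293 CPM. In that remainder mean Gfi1 was 19.2 CPM in the cochlea and 95.5 CPM in the vestibule, and mean Atoh1 8.20 and 8.55 CPM. Myo7a overlapped between tissues. The part of these cell types in the differences of Kcne1, Bsnd, Kcnq1, Atp1b2 and Slc26a4 was not tested.

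**Figure D5:**
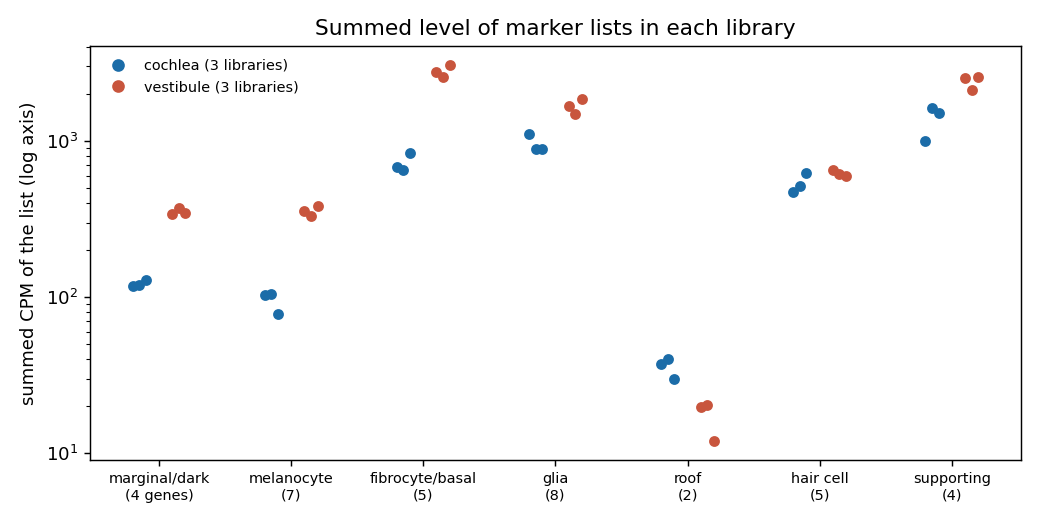
Summed CPM of 7 marker lists in each library, on a log axis, with the number of genes in brackets. Marginal and dark cell, melanocyte, fibrocyte and glial lists lie higher in all 3 vestibular libraries, also without their most abundant gene. The supporting cell list lies higher there through Otog alone, the roof list lies higher in the cochlea through Vmo1, and the hair cell list overlaps (468 to 620 and 595 to 653 CPM) only with Myo6 counted.

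The genes with profiles most like those of Kcne1, Kcnq1 and Slc26a4 were sought among all tested genes, by the root mean square difference of log2 CPM over the 6 libraries after each gene was centred on its own mean. For Kcne1 they were Wscd1 (0.095), Fam81a (0.114) and Cutal (0.119). For Kcnq1 they were Tuba4a, an alpha tubulin (0.0755), Ly6g6d (0.0912) and Ehd3, an endocytic protein (0.0986). For Slc26a4 they were Eaf2 (0.0825), the hair cell transcription factor Lhx3 (0.104) and the fructose bisphosphatase gene Fbp2 (0.108). None of the 9 was in the set or its partner lists. Ly6g6d and Eaf2 were near the floor, at means of 0.387 and 0.739 CPM in the cochlea and 1.45 and 1.70 CPM in the vestibule. Both passed the filter of 1 CPM through the vestibule alone, so a profile higher there was built in.

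Functional partners lay farther off. From Kcne1, Esrrb ranked 139 (0.388) and Bsnd 211 (0.469), while Kcnq1, its partner in the channel, ranked 547 (0.668). From Kcnq1, Atp1b2 ranked 364 (0.326), Kcne1 2513 and Bsnd 12785. From Slc26a4, Atp1b2 ranked 41 (0.159), Kcnq1 2490, Kcne1 13105 and Bsnd 14113. Within 6 libraries of 2 tissues this measure reflects mostly the fold change between the tissues.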

How the data were processed

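RNA was sequenced as 100 bp paired ends from stranded mRNA libraries. Per the labels and methods, the authors aligned reads to GRCm38 with tophat2 and deposited whole counts per Ensembl gene from htseq-count, not normalized. The submitters' processing notes list TopHat2 2.1.0, SAMtools 0.1.18, HTSeq 0.5.4p5 and edgeR 3.4.2. The deposited log2 RPKM matrix, made with edgeR, is scaled by library size without TMM and served for levels between genes. The 5 summary lines at the end of a count table, which name no gene and hold 18.5% to 20.6% of its counts, were left out.

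Tests on the counts used edgeR 4.0.16 under R 4.3.3 (TMM, quasi-likelihood, no replicate block). The paper names edgeR, the filter of 1 CPM in 3 libraries and an FDR, and the test was chosen here. On simulated data for this comparison (14552 genes) it called 74 of 96 genes changed 2-fold, 104 of 104 changed 4-fold and 7 of 14352 unchanged genes. Intervals use the residual degrees of freedom of the fit plus the prior ones that edgeR estimates over all genes. Alternatives were DESeq2 1.42.0, limma-voom (limma 3.58.1), other scalings and filters, a replicate block, other gene lengths and leaving out each library. Figures used Python 3.11.15 and matplotlib 3.10.9.

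The 7 genes and all lists were chosen with earlier results of these data known. Named genes are all 7, every tested gene of the Na,K-ATPase, KCNQ and KCNE and chloride lists, the 3 largest called changes of each other list, genes near 0 that define a cell type, and the 3 most similar profiles for Kcne1, Kcnq1 and Slc26a4. Abcg1, Kcnj16, Fabp7, Tbx18, Pou3f4, Kit, Nr3c1, Nedd4l, Myo6, Myo7a, Atoh1 and Otx2 were named after their values were seen. The results of some genes under this rule are not reported here. Coordinates are from GENCODE vM21, not the annotation counted on. Groups of 3 libraries were not tested for outlying libraries.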

Additional observations from a re-analysis of the deposited data

How the results depend on the processing

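Kcne1, Kcnq1, Atp1b2, Bsnd and Slc26a4 kept their direction and call under all 13 alternatives, and 5 of the 7 genes were called higher in the vestibule in each. With 1 library left out, Kcne1 ranged from 2.80 to 3.03, Kcnq1 from 1.45 to 1.80, Atp1b2 from 1.16 to 1.34, Bsnd from 3.66 to 4.06 and Slc26a4 from 1.02 to 1.23 on the log2 scale. The largest adjusted p among these was 0.0124, for Slc26a4 (edgeR). Slc12a2 and Kcnj10, never called, changed sign: Slc12a2 was 0.074 without TMM and -0.13 to 0.10 with a library left out, and Kcnj10 was -0.087 to 0.29. Over the partner lists, 7 genes in place of 12 were called higher in the vestibule when 5 CPM was required, as fewer genes were tested, and 10 to 12 and, in the cochlea, 5 to 6 with a library left out.

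Replicate numbers did not pair the libraries: deviations of same-numbered libraries correlated at -0.175, -0.260 and -0.475, and no library correlated best with its own number. With the replicate block, Kcne1 was 2.94 and Bsnd 3.85, 5 of the 7 genes stayed called, and partner lists gave 8 and 5 calls in place of 12 and 6, with Kcne2, Kcnj13 (1.32, edgeR adjusted p = 0.0528), Atp6v1c2, Nr3c1 and Nedd4l no longer called. Among marker genes the text names, Heyl (0.60, edgeR adjusted p = 0.0573), Tbx18, Pou3f4 and Sox2 lost their calls with the block too. Over all genes, 2325 were called higher in the vestibule and 1711 in the cochlea. These counts were 1609 and 1009 with the block, 2754 and 1251 without TMM (median log2 fold change 0.13), 1342 and 925 without vestibule replicate 2, 1522 and 1227 without vestibule replicate 1, and 1764 and 1035 without cochlea replicate 2. The cause was not tested. Simulated 2-fold changes were called in 77.1%, which leaves some such changes uncalled. The sums of marker lists without their most abundant gene were added after the data were seen.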
